A study of Homo sapiens with 2 samples.

Results

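The genes described here are the ligands, receptors and antagonists of the Wnt pathway, chosen by gene symbol alone from the authors' table of 50868 genes. The rule took 54 genes. They are 19 Wnt ligands, 10 frizzled receptors, the co-receptors LRP5 and LRP6, the receptor kinases ROR1 and ROR2, 4 R-spondins, 3 LGR receptors, the ligases RNF43 and ZNRF3, 4 SFRP and 4 DKK antagonists, 2 AXIN scaffolds and 2 NKD inhibitors. Messenger RNA was sequenced from a culture made resistant to sorafenib and from the untreated parental culture, both labelled HepG2, a human hepatocellular carcinoma line, with 1 library each. Sorafenib is an oral inhibitor of several kinases used against liver cancer. The resistant culture had been grown in sorafenib from 2.5 µM upward in steps of 0.5 µM until it proliferated at 7 µM, per the labels. The labels do not say whether it is 1 clone or whether the drug was present at harvest. Counts summed to 16811907 in the resistant and 18067146 in the parental library. Each group had a single library, so there was no SD and no test of the conditions, and each interval below covers counting error between these 2 libraries only.

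Wnt proteins are lipid-modified ligands that bind a frizzled receptor together with LRP5 or LRP6, which halts the destruction of beta-catenin and lets it activate TCF and LEF target genes. Other Wnts act through ROR kinases on cell shape and movement, without beta-catenin. RNF43 and ZNRF3 are ubiquitin ligases that remove frizzled receptors from the cell surface, and R-spondins, through LGR receptors, take these ligases away and so strengthen the response. SFRP proteins trap the ligands, DKK proteins block the LRP co-receptors, and AXIN and NKD proteins restrain the signal inside the cell. In the liver the pathway patterns the zones of the lobule, and HepG2 is known for a stabilised form of beta-catenin.

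The libraries did not carry the markers of the labelled line. Of 10 hepatocyte markers, among them ALB, AFP, APOB and HNF4A, 8 had 0 counts in both libraries and the list summed to 4 counts in the resistant and 3 in the parental library. Epithelial markers summed to 1489 and 1347 CPM (counts scaled to library size), nearly all from KRT8 and KRT18, with EPCAM at 0. CDH1 had 20 counts in the resistant and 5 in the parental library, and KRT19 had 12 and 14. Fibroblast markers summed to 403 CPM in the resistant and 397 CPM in the parental library, with COL1A2 and PDGFRA at 0. Endothelial markers summed to 6.03 and 2.76 CPM, leukocyte markers to 9.60 and 5.79 CPM, and stellate cell markers to 5.55 and 8.002 CPM. The leukocyte sum was nearly all CD68, with 156 counts in the resistant and 98 in the parental library. PTPRC, CD3E and MS4A1 had 0 counts in both. The stellate cell sum was mostly RGS5, with LRAT and HAND2 at 0 in both. The names resistant and parental stand for the libraries so labelled.

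Of 25 genes measured well enough for a ratio, 19 lay within 1.2-fold between the resistant and the parental library. The other 6 were RSPO3, ROR1 and FZD8, which were higher in the resistant library, and FZD7, RNF43 and ZNRF3, which were lower. RSPO3, the gene of R-spondin 3, was about 4-fold higher. The ligands, the LRP co-receptors, DKK1 and AXIN1 differed little. A gene was taken as measured when its CPM reached 1 in either library, which 25 of the 54 genes did. A further 16 had counts below that, and 13 had 0 counts in both libraries. For a gene at 0 counts the upper limit was 0.179 CPM in the resistant and 0.166 CPM in the parental library, the worth of 3 counts.

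Size was judged by a log2 ratio of resistant over parental CPM, with 1 CPM added to each. Of the 25 measured genes, 1 was at least 2-fold higher in the resistant library, RSPO3, against 1.31% of all 14686 measured genes. None was at least 2-fold lower, against 0.994% of all measured genes. At 1.5-fold, RSPO3 alone was past the size on the higher side, against 4.84% of all measured genes, and FZD7 alone on the lower side, against 3.81%. Either way these were 2 of 25 genes, against 8.65% of all measured genes, so the share was near the background. The median log2 ratio was 0.055 over the 25 genes and -0.0018 over all measured genes. The middle 95% of all measured genes lay between -0.71 and 0.78, and 24 of the 25 genes lay within it. The counting interval of the fold left out 1 for 10 of the 25 genes, against 42.2% of all measured genes, a share near that background. In these bulk libraries fewer cells that express a gene and less RNA per cell cannot be told apart.

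**Figure D1:**
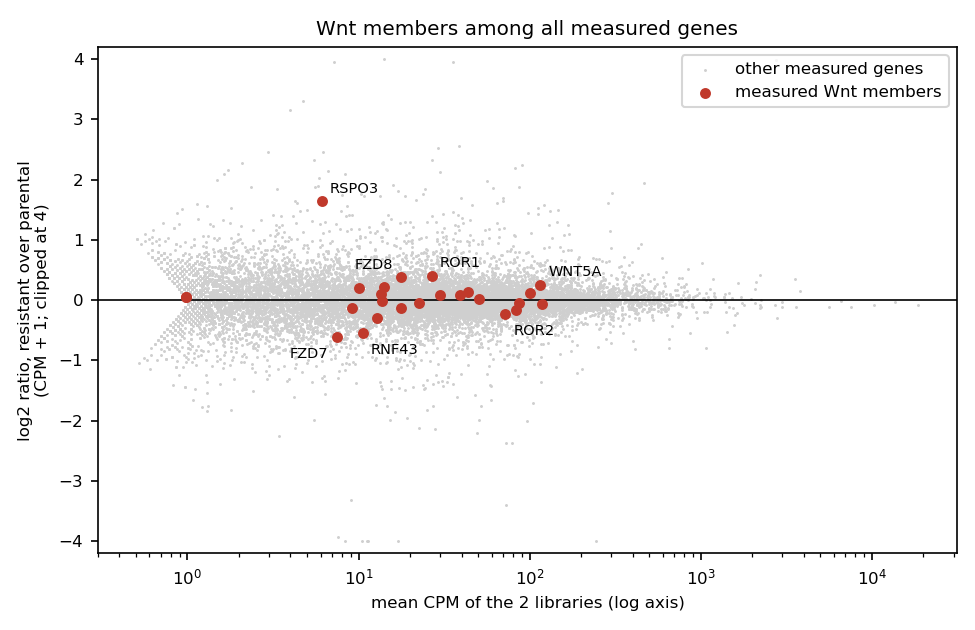
Log2 ratio of resistant over parental CPM (1 CPM added, vertical axis, clipped at 4) against the mean CPM of the 2 libraries (log axis) for all 14686 measured genes in grey and the 25 measured Wnt genes in red. RSPO3 stands apart at 1.65, and the other Wnt genes lie between -0.62 and 0.41, inside the grey cloud.

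RSPO3 (ENSG00000146374; chromosome 6, 127118604 to 127197765 on the plus strand, GRCh38) encodes a secreted protein that strengthens Wnt signalling. It had 163 counts in the resistant and 44 counts in the parental library, which is 9.72 and 2.43 CPM. Its fold was 4.0045 (95% interval 2.85 to 5.72) and its log2 ratio 1.65, the 44th highest of the 14686 measured genes. The authors' deposited table lists RSPO3 as UP with a log2 fold change of 1.993, and it holds no other call among the 38 of these genes that it compares. Over all 21518 genes compared in the authors' deposited table, 1.26% are listed as UP and 1.03% as DOWN. RSPO1, RSPO2 and RSPO4 had 0 counts in both libraries, so RSPO3 was the sole R-spondin with counts.

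Of the 5 nearest measured genes on each side, 1 was past the 1.5-fold size, LAMA2, a laminin gene with 20 counts in the resistant and 7 in the parental library. At these low counts its fold of 3.09 had a wide interval, 1.25 to 8.64, which holds the fold of RSPO3. HEY2, also at low counts, had 14 counts in the resistant and 31 in the parental library, a fold of 0.488 (0.240 to 0.945). With the added CPM its log2 ratio was -0.56, just short of the 1.5-fold size. The 10 neighbours had log2 ratios between -0.56 and 0.66. The nearest of them, RNF146, lies 68.8 kb away and encodes a ligase that degrades AXIN. It had 501 counts in the resistant and 579 counts in the parental library.

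RSPO3 is a gene that endothelial and stromal cells are known to express, so the markers of those cells are given beside it. The endothelial cadherin gene CDH5 had 72 counts in the resistant and 20 counts in the parental library. TEK had 22 and 17 counts, PECAM1 had 7 and 8, VWF had 0 and 5, and KDR had 0 in both. Among fibroblast markers LUM was higher, with 216 counts in the resistant and 93 in the parental library, whereas COL1A1 had 2611 and 2565 counts and COL3A1 3267 and 3941. PDGFRB had 566 and 509 counts and DCN 101 and 87, with COL1A2 and PDGFRA at 0 in both. Among stellate cell markers the 2 RGS5 entries had 25 and 36 counts, and 58 and 91. DES had 10 counts in the resistant and 18 in the parental library, and LRAT and HAND2 had 0 in both. Outside these cell types, the epithelial marker CDH1 had 20 counts in the resistant and 5 in the parental library, and KRT19 had 12 and 14. The leukocyte marker CD68 had 156 and 98 counts, and CD14 had 5 and 7. The part of any of these cell types in the RSPO3 difference was not tested.

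The receptors of R-spondins were unequal in level. LGR4, the most abundant of them, had 1327 counts in the resistant and 1600 counts in the parental library, or 9.999 and 11.2 FPKM, the deposited value per gene length and library depth. Its fold was 0.897 (0.833 to 0.965), so LGR4 was slightly lower in the resistant library while RSPO3 was higher. LGR5, a stem cell marker and beta-catenin target, had 17 counts in each library and was just inside the limit for a measured gene at 1.01 CPM in the resistant library. LGR6 had 5 and 8 counts and was not measured.

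Both ligases that remove frizzled receptors were lower in the resistant library, and neither passed the 1.5-fold size once 1 CPM was added. RNF43 (chromosome 17, 58352500 to 58417595, minus strand) had 141 counts in the resistant and 231 counts in the parental library. This is 8.41 and 12.7 CPM, a fold of 0.660 (0.531 to 0.817), or 1.52-fold lower, and a log2 ratio of -0.55 with the added CPM. ZNRF3, its paralog, had 191 counts in the resistant and 258 counts in the parental library, a fold of 0.800 (0.660 to 0.969). The ratio of RNF43 to ZNRF3 did not differ between the libraries beyond counting error, at 0.825 times the parental ratio (0.616 to 1.10). RNF43 shares exon sequence on the same strand with SUPT4H1, a transcription elongation gene with 716 counts in the resistant and 820 in the parental library. The sum of both, 857 and 1051 counts, had a log2 ratio of -0.18. Most of these counts were of SUPT4H1, which alone had a log2 ratio of -0.081. The sources used here do not say how reads in the shared stretch were assigned.

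The stretches upstream of 3 genes are printed because the results turn on them: RSPO3 as the gene that was higher, RNF43 as a ligase that was lower, and DKK1 as a beta-catenin target that was level in both. Capitals mark letters of motifs searched on both strands. These are CTTTGAT and CTTTGAA for TCF and LEF, GGAATG for TEAD, TGANTCA for AP-1, GGGCGG for the GC box and TATAAA for the TATA box. Bases that lie in an annotated exon of the gene are left out, and the sequences are from RefSeq on GRCh38.p14.
RSPO3, chr6:127118421-127118603, plus strand: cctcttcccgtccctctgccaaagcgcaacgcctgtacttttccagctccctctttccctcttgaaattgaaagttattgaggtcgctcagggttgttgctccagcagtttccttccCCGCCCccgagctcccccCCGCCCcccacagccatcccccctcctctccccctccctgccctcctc
RNF43, inner start, chr17:58402722-58402971, minus strand: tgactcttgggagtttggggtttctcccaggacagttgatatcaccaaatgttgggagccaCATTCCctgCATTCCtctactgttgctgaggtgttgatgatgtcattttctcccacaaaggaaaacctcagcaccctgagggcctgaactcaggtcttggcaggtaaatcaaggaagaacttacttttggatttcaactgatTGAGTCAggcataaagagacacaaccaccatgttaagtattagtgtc
DKK1, chr10:52314031-52314280, plus strand: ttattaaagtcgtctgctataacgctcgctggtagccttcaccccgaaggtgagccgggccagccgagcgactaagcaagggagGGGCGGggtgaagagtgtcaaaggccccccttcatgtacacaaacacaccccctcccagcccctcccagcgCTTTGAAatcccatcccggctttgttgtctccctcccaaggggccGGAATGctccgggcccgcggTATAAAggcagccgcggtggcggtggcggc
Distances are from the RefSeq start, which for RSPO3 lies 67 annotated exon bases past the printed end. The RSPO3 stretch holds 2 GC box matches and none of the other motifs. The RNF43 stretch, before the inner of its RefSeq starts, holds 2 TEAD matches, 189 and 180 bases before the start, and 1 AP-1 match 47 bases before it. The 250 bases before the outer RNF43 start hold no match. The DKK1 stretch holds a TCF and LEF match 95 bases before the start, a TEAD match at 50, a GC box at 166 and a TATA box at 30. Windows of 250 bases were in the RefSeq table for 36 of the 54 genes, and DKK1 was the 1 gene with CTTTGAA, none having CTTTGAT. Among all 35116 windows CTTTGAA was found in 3.80%, CTTTGAT in 2.26%, GGAATG in 11.9%, TGANTCA in 6.57%, GGGCGG in 42.6% and TATAAA in 10.7%. A match describes letters, and binding was not measured.

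Of the 19 Wnt ligands, 6 were measured, and each of them had a log2 ratio above 0, between 0.055 and 0.26, as had 7292 of all 14686 measured genes. WNT5A, the main ligand of the ROR branch, was the most abundant. It had 2112 counts in the resistant and 1905 counts in the parental library, or 8.17 and 6.86 FPKM. Its fold was 1.198 (1.13 to 1.28), and it was the 1 measured ligand whose interval left out 1. WNT7B, a ligand known from lung and brain vessel development, had 673 counts in the resistant and 688 counts in the parental library, 5.98 and 5.69 FPKM, a fold of 1.06 (0.949 to 1.18).

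WNT3, WNT9A and WNT10B, which can stabilise beta-catenin, followed at between 2.15 and 2.77 FPKM. WNT3 had 237 counts in each library. WNT9A had 182 counts in the resistant and 169 in the parental library, and WNT10B had 257 and 236. Their folds of 1.08 (0.899 to 1.2997), 1.16 (0.939 to 1.44) and 1.18 (0.983 to 1.41) did not leave 1 beyond counting error. WNT2B, with 17 counts in each library, was just inside the limit for a measured gene, and its interval ran from 0.519 to 2.25.

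The composition of the ligand pool was close to equal. WNT5A made up 35.8% of summed ligand FPKM in the resistant and 33.6% in the parental library, WNT7B 26.2% and 27.9%, and WNT3 12.1% and 12.6%. Counts summed over all 19 ligands were 3521 in the resistant and 3307 in the parental library, a fold of 1.15 (1.10 to 1.21) to which WNT5A gave most counts. The ratio of WNT5A to WNT7B in the resistant library was 1.13 times that in the parental library (1.0003 to 1.28).

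The remaining 13 ligands were at or under 15 counts in both libraries. WNT5B had 4 counts in the resistant and 15 counts in the parental library, an interval of the fold of 0.0696 to 0.905 that also left out 1, on the lower side. WNT7A had 7 and 3. WNT11 had 11 and 14 counts, WNT16 had 10 and 15, and WNT2 had 5 in each. WNT1, WNT4, WNT6 and WNT10A had at most 3 counts. WNT3A, WNT8A, WNT8B and WNT9B had 0 in both libraries.

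**Figure D2:**
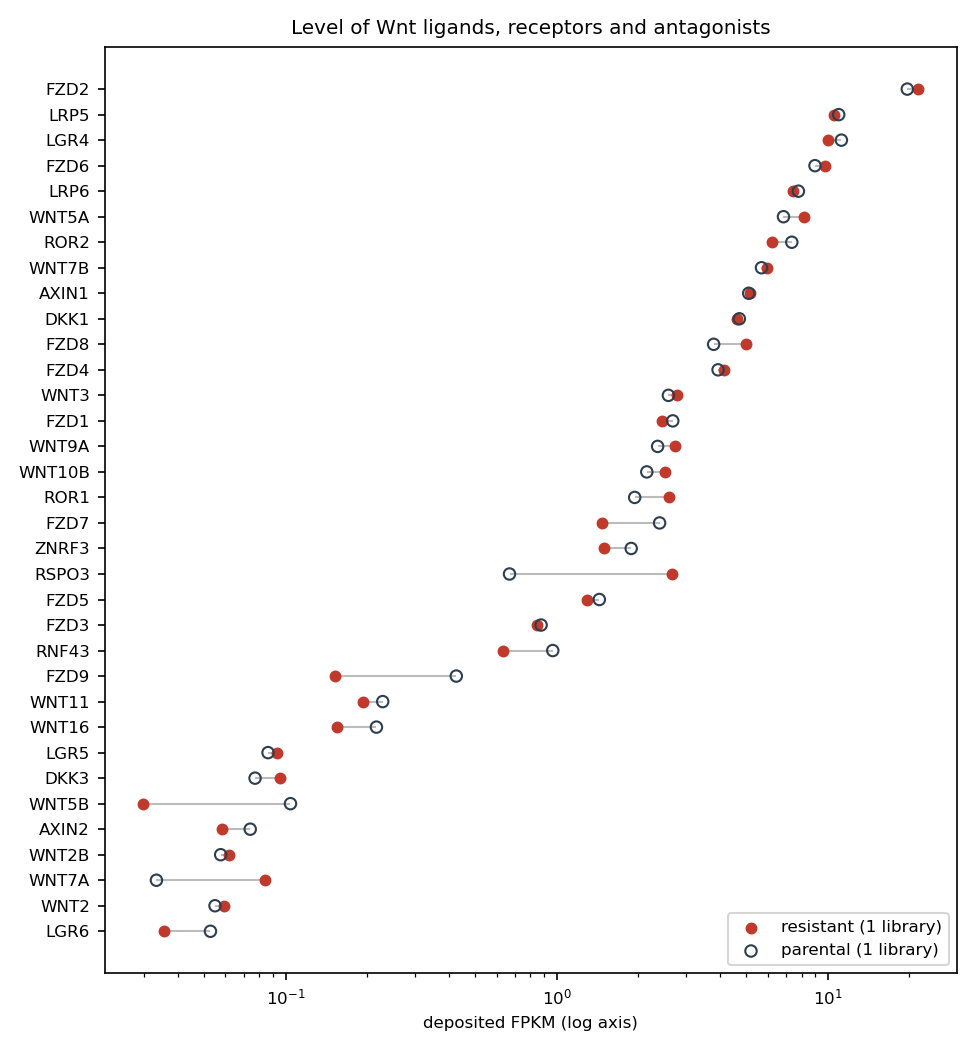
Deposited FPKM (log axis) in the resistant library (filled points) and the parental library (open points) for every gene of the group with more than 3 counts in either library, ordered by mean level. FZD2 is highest at 21.5 FPKM in the resistant and 19.6 FPKM in the parental library, and RSPO3 shows the widest gap among genes above 0.5 FPKM, at 2.67 and 0.670 FPKM.

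All 10 frizzled receptors, which bind Wnt ligands with an outer cysteine-rich domain, had counts, and 8 were measured. Of these, 4 had a log2 ratio above 0 and 4 below 0. FZD2 had the highest level of any gene of the group per length. It had 765 counts in the resistant and 749 counts in the parental library, or 21.5 and 19.6 FPKM, and a fold of 1.10 (0.997 to 1.22). FZD6, which is known to act in planar polarity, had 1754 and 1738 counts and a fold of 1.09 (1.02 to 1.17).

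FZD7 (chromosome 2, 202034587 to 202038445, plus strand), a receptor known from liver cancer and stem cells, was the 1 gene of the group past 1.5-fold on the lower side. It had 95 counts in the resistant and 167 counts in the parental library, which is 5.67 and 9.22 CPM. It was 1.63-fold lower (1.26 to 2.11), with a log2 ratio of -0.62. The authors' deposited table makes no call for it, with a log2 fold change of -0.71.

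FZD8, another beta-catenin receptor, differed the other way, with 339 counts in the resistant and 276 counts in the parental library. Its fold was 1.33 (1.13 to 1.56) and its log2 ratio 0.39. FZD8 had the highest and FZD7 the lowest log2 ratio of the 8 measured frizzled genes. FZD7 held 3.14% of summed frizzled FPKM in the resistant and 5.42% in the parental library, and FZD8 held 10.7% and 8.58%.

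The other frizzled genes differed less or were scarce. FZD1 had 285 counts in the resistant and 337 in the parental library, FZD3 had 371 and 414, FZD5 had 146 and 174, and their intervals all held 1. FZD4, the receptor of norrin in vessels, had 514 counts in the resistant and 525 in the parental library, a fold of 1.06 (0.935 to 1.1975). It overlaps exons of PRSS23 on the opposite strand, which had 2618 and 1552 counts, and the sources used here do not say whether counting used strand. Likewise FZD6 overlaps BAALC-AS1 (13 counts in the resistant and 25 in the parental library), WNT2B overlaps ST7L (319 and 359) and DKK1 overlaps PRKG1-AS1 (7 and 8). The part of these partners in the values was not tested. FZD9 had 6 counts in the resistant and 18 in the parental library, and at 0.993 CPM it was just outside the limit for a measured gene. The interval of its fold, 0.117 to 0.948, left out 1 on the lower side. FZD10 had 1 and 3 counts.

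The co-receptors LRP5 and LRP6, which pass the signal to AXIN, were among the most abundant genes of the group and nearly equal in both libraries. LRP5 had 1431 counts in the resistant and 1596 counts in the parental library, or 10.6 and 11.0 FPKM, and a fold of 0.969 (0.902 to 1.04). LRP6 had 1947 and 2189 counts, or 7.44 and 7.79 FPKM, and a fold of 0.961 (0.904 to 1.02). The ratio of LRP6 to LRP5 was 0.992 times the parental ratio (0.902 to 1.09).

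The ROR kinases, receptors of WNT5A, differed in opposite directions. ROR1, best known as a surface antigen of leukaemia cells, had 514 counts in the resistant and 414 counts in the parental library, a fold of 1.34 (1.18 to 1.53) and a log2 ratio of 0.41. ROR2, which is needed for skeletal growth, had 1106 counts in the resistant and 1411 counts in the parental library, a fold of 0.847 (0.782 to 0.917). ROR2 remained the more abundant per length in both, with 6.20 FPKM against 2.59 FPKM for ROR1 in the resistant library. The ratio of ROR1 to ROR2 was 0.417 in FPKM in the resistant and 0.263 in the parental library. It was 1.58 times the parental ratio (1.36 to 1.85), although neither gene was past the 1.5-fold size. No background over other gene pairs is given.

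**Figure D3:**
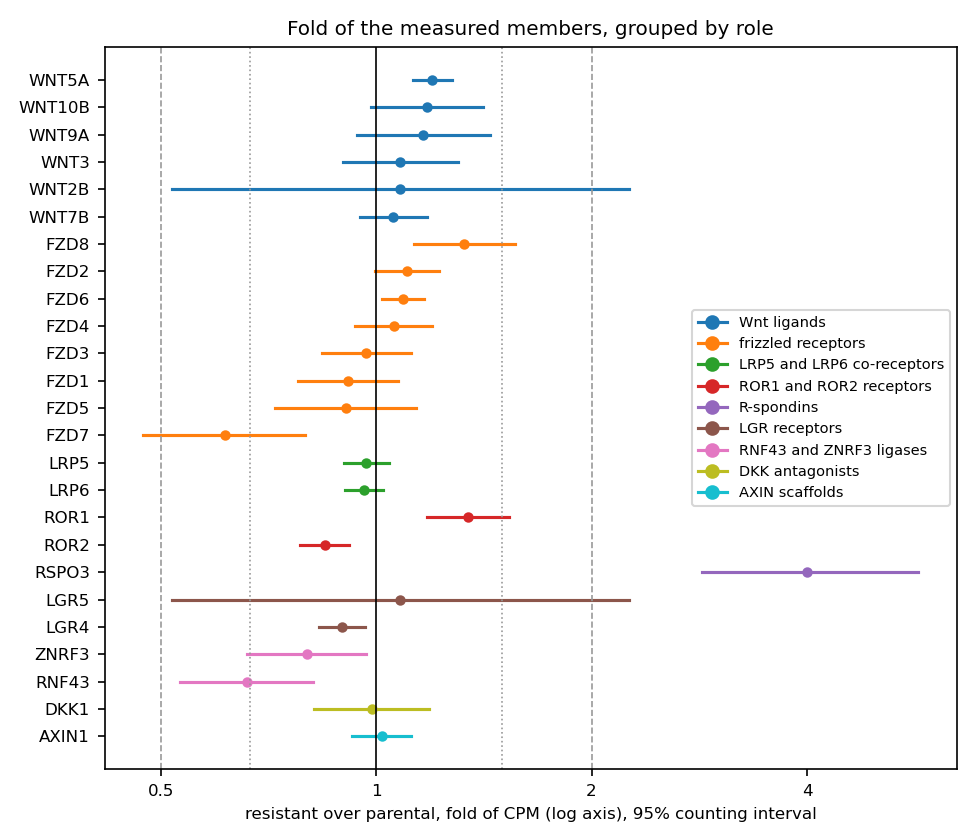
Fold of resistant over parental CPM (log axis) with its exact 95% counting interval for the 25 measured genes, coloured by role. Dotted and dashed lines mark 1.5-fold and 2-fold without an added CPM. RSPO3 lies at 4.0045, FZD7 at 0.615 and RNF43 at 0.660, while LRP5, LRP6, DKK1 and AXIN1 lie near 1.

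The SFRP and DKK antagonists were largely absent. SFRP1, SFRP2, SFRP4 and SFRP5, which bind Wnt ligands, had 0 counts in both libraries. DKK1, which blocks LRP5 and LRP6, was the 1 measured gene among these antagonists. It had 227 counts in the resistant and 249 counts in the parental library, or 4.62 and 4.71 FPKM, and a fold of 0.985 (0.820 to 1.18). DKK3 had 15 and 13 counts, and DKK2 and DKK4 had 0 in both libraries.

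Of the inner restraints, AXIN1, the scaffold of the complex that destroys beta-catenin, had 857 counts in the resistant and 910 counts in the parental library. Its fold was 1.02 (0.926 to 1.12). AXIN2, a scaffold whose gene beta-catenin itself switches on, had 11 counts in the resistant and 15 counts in the parental library, under 1 CPM in both. NKD1 and NKD2, which bind dishevelled, had 1 count each in the resistant and 0 in the parental library. AXIN2, NKD1 and LGR5, which are among the readouts of beta-catenin activity, were thus at or near the lower limit in both libraries. Other target genes were well above it, such as TBX3 with 668 counts in the resistant and 904 in the parental library, and NOTUM with 301 and 466. Of the 28 targets listed below, 15 were measured.

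The rest of the pathway was read from 8 lists with 116 further genes, 86 of them measured. At 1.5-fold 2 were higher in the resistant library and 3 lower, against 4.84% and 3.81% of all measured genes, and none was past 2-fold either way. Their median log2 ratio was -0.032. Of the 103 further genes that the deposited annotation assigns to the KEGG Wnt signaling pathway, 77 were measured, 5 were at least 1.5-fold higher and 1 was at least 1.5-fold lower. FOSL1, CSNK2A1, DAAM1 and JUN were among the higher, and the 1 lower was APC2. DAAM1 and APC2 are also among the genes of the 8 lists counted above. FOSL1, an AP-1 subunit gene, had 111 counts in the resistant and 55 counts in the parental library.

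Enzymes and carriers that act on the Wnt ligands themselves had a median of -0.12 over 5 measured members with none past 1.5-fold. PORCN and WLS serve secretion, whereas NOTUM, TRABD2A and TRABD2B inactivate the ligands. WLS, the carrier that takes Wnts to the cell surface, had 1213 counts in the resistant and 1729 counts in the parental library, a fold of 0.758 (0.704 to 0.817). NOTUM, an enzyme that strips the lipid from Wnts, had 301 and 466 counts and a fold of 0.698 (0.602 to 0.809). Both were lower in the resistant library beyond counting error. TRABD2A, a protease that cleaves Wnts, was higher beyond counting error, with 2740 counts in the resistant and 2443 counts in the parental library and a fold of 1.21 (1.15 to 1.28). The intervals of PORCN, which attaches the lipid, and of TRABD2B held 1, with 202 and 239 counts for PORCN and 40 and 41 for TRABD2B.

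Among other antagonists and modulators 4 of 13 were measured, with a median of -0.0054 and 1 past 1.5-fold, KREMEN1. This receptor, which acts with DKK1 against LRP6, had 77 counts in the resistant and 164 counts in the parental library, a fold of 0.508 (0.382 to 0.669) and a log2 ratio of -0.85. IGFBP4, the most abundant gene of this list, had 779 counts in the resistant and 856 in the parental library, or 21.1 and 21.5 FPKM. Its fold was 0.984 (0.892 to 1.09). Other Wnt receptors had a median of -0.073 over 7 measured members with none past 1.5-fold. LRP4 had 633 counts in the resistant and 950 in the parental library, a fold of 0.720 (0.650 to 0.797), and the polarity receptor PTK7 had 139 and 187 counts, a fold of 0.804 (0.640 to 1.01).

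Dishevelled and its partners had a median of 0.0015 over 7 measured members. DAAM1, a formin that links dishevelled to the actin skeleton, was past 1.5-fold, with 1041 counts in the resistant and 728 counts in the parental library and a fold of 1.55 (1.40 to 1.702). The destruction complex had a median of 0.023 over 19 measured members, and APC2, with 6 counts in the resistant and 20 in the parental library, was the 1 past 1.5-fold. CTNNB1, the beta-catenin gene, had 4243 and 4657 counts, a fold of 0.985 (0.945 to 1.03).

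Nuclear factors had a median of -0.080 over 16 measured members, with none past 1.5-fold. Of these 16, 12 had a log2 ratio below 0, as had 7394 of all 14686 measured genes. TCF7L2, the sole measured gene of the TCF and LEF family, had 377 counts in the resistant and 619 counts in the parental library. Its fold was 0.658 (0.578 to 0.750) and its log2 ratio -0.58. TLE2, a co-repressor, had 109 and 165 counts, a fold of 0.714 (0.555 to 0.915). Its paralog TLE4 differed the other way, with 512 counts in the resistant and 419 counts in the parental library and a fold of 1.32 (1.16 to 1.51). TLE1 was also higher, at 464 and 437 counts and a fold of 1.15 (1.005 to 1.31), and TLE3 was lower, at 1025 and 1238 counts and a fold of 0.895 (0.823 to 0.973). LEF1 had 0 counts in both libraries, and TCF7 had 2 in the resistant and 3 in the parental library.

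Target genes of beta-catenin had a median of -0.12 over 15 measured members of 28, with 5 above and 10 below 0. Over all measured genes 7292 were above and 7394 below 0. This list includes AXIN2, NKD1, LGR5, RNF43, ZNRF3, DKK1 and NOTUM, described above. EPHB2, an ephrin receptor gene, was past 1.5-fold with 147 counts in the resistant and 83 counts in the parental library, a fold of 1.91 (1.45 to 2.54). MYC had 113 counts in the resistant and 189 counts in the parental library, and CCND1, which other pathways also control, had 4380 and 3301. TBX3, GLUL and PPARD were lower beyond counting error, with folds of 0.799 (0.722 to 0.884), 0.860 (0.744 to 0.993) and 0.836 (0.734 to 0.952). In all, the interval left out 1 for 9 of the 15 measured targets, against 42.2% of all measured genes. Of these 9, 7 were lower and 2 higher in the resistant library. Over all 14686 measured genes 3108 were lower and 3095 higher in this way. RNF43, which shares exon sequence with SUPT4H1, is among the 7. More of the measured targets were thus lower than higher, without a direction shared by all. The list was chosen with earlier results of these data known.

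The planar polarity and calcium branch had a median of -0.0011 over 19 measured members, with 1 past 1.5-fold. This was CELSR2, a cadherin of planar polarity, with 1227 counts in the resistant and 2263 counts in the parental library. Its fold was 0.586 (0.546 to 0.629) and its log2 ratio -0.76. Its relatives CELSR1 and CELSR3 had folds of 0.999 (0.918 to 1.09) and 1.10 (0.990 to 1.21).

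**Figure D4:**
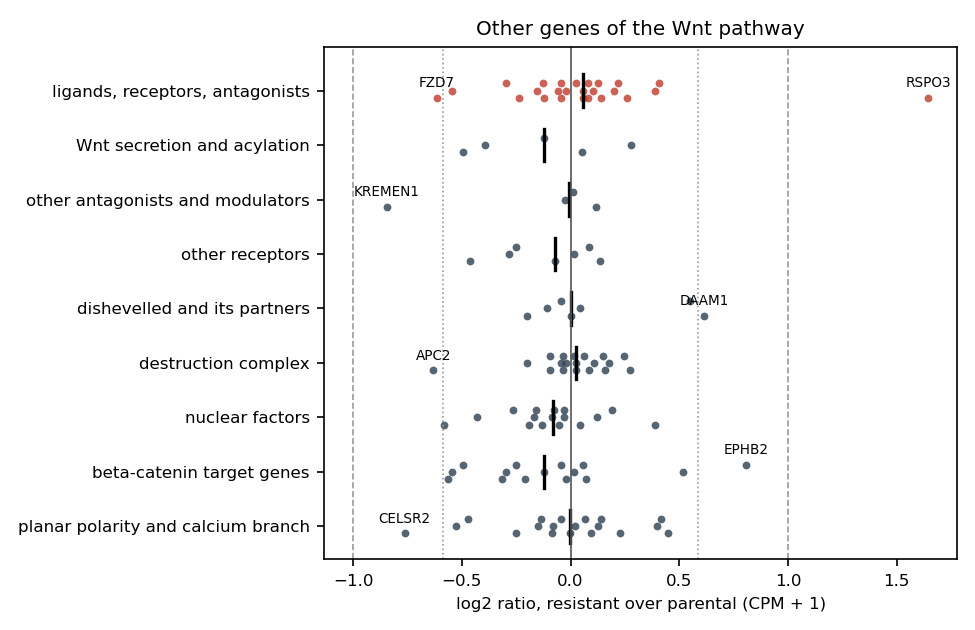
Log2 ratio of resistant over parental CPM (1 CPM added) for the measured ligands, receptors and antagonists (red) and for 8 lists of other pathway genes (dark), with the median of each as a vertical bar. Dotted and dashed lines mark 1.5-fold and 2-fold, and genes past 1.5-fold are named. RSPO3 at 1.65 is the 1 gene past 2-fold, and all medians lie between -0.12 and 0.055.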

How the data were processed

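Messenger RNA was measured in 1 resistant and 1 parental library, grouped by the treatment label. The authors deposited whole-number counts per gene and FPKM, per the file headers. Per the submitters' processing notes bcl2fastq 2.19, HISAT2 2.0.4 and StringTie 1.3.0 were used on GRCh38. For annotation release, counting settings and strand use, nothing is given in the sources used here. The deposited FPKM ratio of a gene equals its count ratio over library totals, by a check on the file. The authors' deposited comparison holds a log2 fold change with p-values and q-values for 1 library against 1, and its p-values were not used.

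Counts were scaled to CPM with TMM factors (edgeR 4.0.16, R 4.3.3), 0.997 for the resistant and 1.00 for the parental library, with no model fitted. Folds are ratios of CPM whose 95% interval (exact, Clopper-Pearson) comes from the 2 counts given their sum. Ratios between paralogs are odds ratios of 4 counts with an exact conditional 95% interval (SciPy 1.17.1). These ratios were not part of the plan. PCR copies are not independent molecules. The calculation was tested on simulated data. Exon overlaps came from GENCODE 29, in which 52 of 54 genes had identical coordinates. The protein comparison planned was not run.

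The genes, lists and size rules were chosen with earlier results of these data known. The rule for named genes took those past 1.5-fold, the 10 of highest mean FPKM, the largest ratio in each role, and in each other list those past 1.5-fold or else the 2 largest. All other genes of the 54 were named after their values were seen. So were RNF146, LAMA2, HEY2, PRSS23, SUPT4H1, the other overlapping genes, PORCN, TRABD2A, TRABD2B, IGFBP4, TLE1, TLE3 and TLE4. The same holds for MYC, CCND1, TBX3, GLUL, PPARD, CTNNB1, LEF1, TCF7, CELSR1, CELSR3 and the KEGG genes. The AP-1, GC box and TATA motifs were added after the data were seen. Marker lists covered hepatocyte, epithelial, fibroblast, endothelial, leukocyte and stellate cells, the last with 2 entries for RGS5.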

Additional observations from a re-analysis of the deposited data

How the results depend on the processing

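Results were recomputed with library totals, median-of-ratios factors, upper quartile factors, TMM without mitochondrial genes, a pseudocount of 0.5 or 0.1 CPM, no filter on low counts, a minimum of 5 CPM, the deposited FPKM plus 1, and sums over genes that share exons. RSPO3 stayed the 1 gene at least 2-fold higher in all 10, with a log2 ratio between 1.14 with FPKM plus 1 and 1.96 with a pseudocount of 0.1. The number at least 1.5-fold lower was 2 with a pseudocount of 0.1, where RNF43 joined FZD7 at -0.59. It was 0 with FPKM plus 1, where FZD7 stood at -0.46, since 1 FPKM weighs more than 1 CPM on genes at this level. The median log2 ratio lay between 0.025 and 0.080. The sum of RNF43 and SUPT4H1 gave -0.18 in place of -0.55. Because SUPT4H1 holds most of the summed counts, this sum cannot show how RNF43 alone differed. All 80 recomputed list medians moved by less than the counting interval of the gene at the median. Leaving out a replicate was not possible with 1 library per group. No paired analysis was possible because each group has 1 library. Depth limits the 29 genes below 1 CPM, for which no fold is stated. For WNT5B and FZD9 among them the counting interval alone is given.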
